A study of Homo sapiens with 31 samples.

Results

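ATF4 is the transcription factor through which cells answer a shortage of amino acids, and 10 coding transcripts of its program were followed here through every library of the study. The set holds ATF4 itself (ENST00000337304), the stress factors DDIT3 (ENST00000346473) and PPP1R15A (ENST00000200453), and the feedback regulator TRIB3 (ENST00000217233). It also holds the leucine sensor SESN2 (ENST00000253063) and the enzymes ASNS (ENST00000175506), PSAT1 (ENST00000376588), PHGDH (ENST00000369409), SHMT2 (ENST00000328923) and MTHFD2 (ENST00000394053). Members were chosen as known genes of the response, by transcript identifier, and each was kept where its listed length lay within 5 of its protein length less 9. All 10 met that rule, out of 35500 transcripts kept after similar neighbours were dropped, and all 10 passed the filter on low counts in every comparison. The rule uses no measured value, but the genes were chosen with earlier results of these data known. On GRCh38.p14 (RefSeq) ATF4 lies at chr22:39520559-39522686 and ASNS at chr7:97851677-97928441. DDIT3 and SHMT2 lie on chromosome 12, PHGDH and SESN2 on chromosome 1, and MTHFD2, PSAT1, PPP1R15A and TRIB3 on chromosomes 2, 9, 19 and 20.

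When amino acids run short, or when the endoplasmic reticulum is stressed, kinases phosphorylate the initiation factor eIF2. General initiation then falls, while the coding region of ATF4, which lies behind upstream open reading frames, is translated more. DDIT3 and PPP1R15A also carry upstream open reading frames that restrain their coding regions at rest. ATF4 protein pairs with C/EBP factors and turns on genes for amino acid import, for serine, glycine and asparagine synthesis and for mitochondrial folate metabolism. mTORC1, the growth-promoting kinase complex, is known to keep ATF4 and several of these enzymes high in fed cells.

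The cells were HEK293 T-REx, an established line of embryonic kidney origin that accepts inducible transgenes. The question concerned eIF4A1, a helicase that unwinds mRNA for initiation, and its link to the RNA-binding protein LARP1 when mTOR is inhibited. Ribosome profiling, which counts the fragments that ribosomes protect (footprints), covered naive cells and knockout (KO) lines for either EIF4A1 or EIF4A2, with 2 DMSO libraries each. Each of these genotypes also had 1 library at 1 µM and 1 library at 10 µM of PP242, an inhibitor of the mTOR kinase, given for 30 min. RNA-seq covered untreated naive and EIF4A1 KO cells (2 libraries each), and the EIF4A2 KO line was not analysed here at the RNA level. RNA captured on streptavidin beads was sequenced beside input from cells carrying SBP-eIF4A1 or SBP-eIF4A2 (2 input and 2 pulldown libraries each), SBP being a streptavidin-binding peptide. In SBP-eIF4A1 cells given siRNA for 72 h, siControl had 2 input and 2 pulldown libraries, and siLARP1 had 2 input libraries and 1 pulldown library. All cells were grown in complete medium with serum, and no library came from amino acid starvation. The labels name 1 line per knockout and do not say whether replicates were separate cultures, so p-values measure the spread between these libraries only. Replicates of the EIF4A2 KO, SBP-eIF4A2 and RNA-seq libraries are numbered in another style than the rest, no label gives a preparation date, and a separate preparation cannot be told apart from those groups.

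Totals over the kept transcripts ran from 2514601 to 6419131 counts in profiling, 11888728 to 17637558 in the pulldown experiments and 19703586 to 21626841 in RNA-seq. All levels are CPM, counts divided by TMM-scaled library size, so each change is relative to the other transcripts of a library. In such bulk libraries fewer expressing cells and less RNA per cell cannot be told apart. EIF4A1 footprints in DMSO stood at 2598 to 2676 CPM in naive and 506.6 to 597.2 CPM in EIF4A1 KO cells, and EIF4A2 footprints at 132 to 161 CPM in naive and 61.4 to 62.8 CPM in EIF4A2 KO cells. In EIF4A1 KO cells the EIF4A2 footprints stood higher, at 709 to 738 CPM. LARP1 stood at 219 to 229 CPM in siControl and 76.8 to 94.7 CPM in siLARP1 inputs. Replicate 2 of the input labelled SBP-eIF4A1 siLARP1 went against its label. It held 1826 CPM of EIF4A1 and 1057 CPM of EIF4A2, where the other siLARP1 input held 3091 and 292 CPM and the SBP-eIF4A2 inputs 1870 to 1919 and 997 to 1018 CPM. Of the markers for the line, KRT18, NEFL and VIM were present in every library and NEFM was near 0, with at most 2.15 CPM. INS was at 0 in all libraries, PTPRC and ALB stayed below 1 CPM, and COL1A1 reached 12.1 CPM.

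The promoters of the set were read first, since a composite ATF and C/EBP site is the known route from ATF4 to its targets. TGATGNAAN was searched on both strands from 250 bases before to 50 bases after the annotated start (RefSeq, GRCh38.p14), where 9 of the 10 members had an entry (SHMT2 had none). Among these 9 promoters 1 held a match, ASNS (11.1%), beside 8 of 30 other response genes with an entry (26.7%) and 3.67% of all 27305 promoters. Windows of 30 bases around the match are shown 5′ to 3′ on the strand of the gene for ASNS and for 6 response genes outside the set whose match lay before the start, with the match in capitals.
ASNS: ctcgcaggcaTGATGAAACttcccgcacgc
CHAC1: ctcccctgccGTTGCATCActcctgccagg
HERPUD1: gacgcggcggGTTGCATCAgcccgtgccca
GOT1: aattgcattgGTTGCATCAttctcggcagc
MTHFD1L: ccgccggctcTGATGCAATcgcgccgggcg
PPP1R15B: ccgccccggcTGATGCAACctcacgctgcc
ATF3: aaggtcaggaTGATGGAAGgctgtcatatt
The ASNS window is chr7:97872457-97872486 on the minus strand, with its match starting 68 bases before the start. Those of CHAC1 (chr15:40953251-40953280, plus strand) and MTHFD1L (chr6:150866347-150866376, plus strand) hold matches 210 and 129 bases before it. CHAC1, HERPUD1 and GOT1 carry the match on the opposite strand. A match is a description of these letters, not a shown site of binding.

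In untreated naive cells the set spanned a wide range of levels, and ATF4, DDIT3, PPP1R15A and TRIB3 carried fewer footprints per RNA than the other 6 members. Per 100 codons of counted length, ATF4 RNA stood highest, at 222.1 CPM ± 1.55 (SD, n = 2). SHMT2 (69.5 ± 2.44), MTHFD2 (69.0 ± 0.402) and PHGDH (67.0 ± 4.43) followed and did not differ beyond their spread. ASNS at 36.5, PSAT1 at 20.9, DDIT3 at 14.2, TRIB3 at 11.97, SESN2 at 6.95 and PPP1R15A at 5.26 CPM per 100 codons completed the order of RNA levels. Footprints per 100 codons ran in another order, from SHMT2 (83.3 CPM ± 3.69) and PSAT1 (78.1 ± 2.04) through PHGDH (69.7 ± 2.18), ASNS (58.8 ± 2.29) and MTHFD2 (55.8 ± 3.89) to ATF4 (31.8 ± 1.201). SESN2 (6.53), TRIB3 (3.61), DDIT3 (1.09) and PPP1R15A (0.668) lay lowest in footprints. The replicates of ASNS and MTHFD2 overlapped, as did those of DDIT3 and PPP1R15A, and no other neighbours in this order did.

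Footprints per RNA, set against the median of 23640 transcripts, were lowest among the members for DDIT3, PPP1R15A and ATF4. A part of upstream open reading frames in these ratios was not tested. On the log2 scale DDIT3 lay at -3.58 (percentile 0.948), PPP1R15A at -2.86 (percentile 1.91) and ATF4 at -2.68 (percentile 2.31). TRIB3 stood at -1.61 (percentile 8.18). The enzymes lay near or above the middle: MTHFD2 at -0.19, PHGDH at 0.18, SHMT2 at 0.38, ASNS at 0.81 (percentile 80.8) and PSAT1, the aminotransferase of serine synthesis, at 2.02 (percentile 97). SESN2 stood at 0.029. These ratios are descriptions of 2 libraries per assay, and the counts behind DDIT3 and PPP1R15A footprints were small, 6 and 14 for DDIT3 and 20 and 30 for PPP1R15A.

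**Figure D1:**
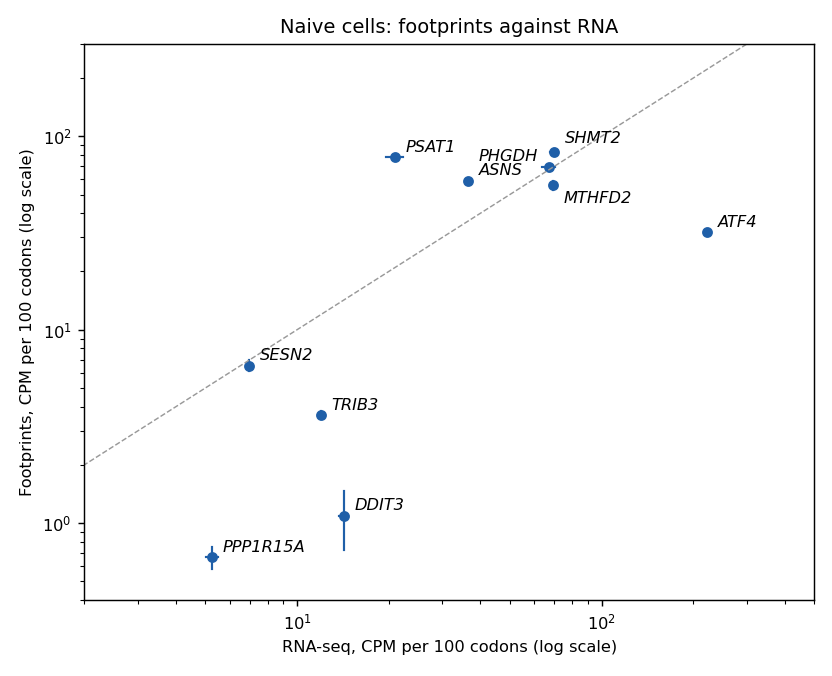
Footprints (y axis) against RNA (x axis) in untreated naive cells, both as CPM per 100 codons on log scales; points are means of 2 libraries, lines join the replicates, and the dashed line marks equal values. ATF4, TRIB3, DDIT3 and PPP1R15A lie furthest below the line, with MTHFD2 and SESN2 nearer to it on that side. PSAT1 and ASNS lie furthest above it, with SHMT2 and PHGDH nearer.

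RNA of the set was mostly lower in EIF4A1 KO cells. In this comparison 36.5% of 25745 transcripts were called at an adjusted p under 0.05 by edgeR's quasi-likelihood test. Of the 10 members 8 fell and 2 rose, with a median log2 change of -0.53, against -0.0025 over all transcripts. ATF4 itself stood at 763.4 and 755.9 CPM in naive and 569.2 and 592.0 CPM in EIF4A1 KO cells, and both KO libraries lay below both naive ones. It fell by 0.40 on the log2 scale (SE 0.031, adjusted p 2.32e-12). ASNS, which makes asparagine, stood at 202.1 and 201.05 CPM in naive and 104.6 and 109.8 CPM in EIF4A1 KO cells. Its level in the knockout was 0.527 times that in naive cells (log2 -0.92, SE 0.042, adjusted p 5.20e-18).

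The serine and folate enzymes fell together at the RNA level. PHGDH, which opens serine synthesis, went from 334.1 and 366.9 CPM to 210.5 and 212.7 CPM (log2 -0.74, adjusted p 3.08e-16). PSAT1 stood at 70.5 and 80.4 CPM in naive and 51.0 and 49.4 CPM in EIF4A1 KO cells (log2 -0.60, adjusted p 8.82e-10). The mitochondrial enzymes SHMT2 and MTHFD2 changed by -0.60 and -0.62. No KO library reached a naive library for any of these 4 genes, but the share of all transcripts so separated was not counted. Among the regulators, DDIT3 (the pro-death factor CHOP) changed by -0.46 (SE 0.090, adjusted p 0.000118) and TRIB3, a pseudokinase that restrains ATF4, by -0.35 (SE 0.068, adjusted p 8.54e-05).

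PPP1R15A and SESN2 moved the other way. PPP1R15A encodes GADD34, the phosphatase subunit that reverses eIF2 phosphorylation, and its RNA stood at 33.3 and 36.7 CPM in naive and 70.6 and 76.9 CPM in EIF4A1 KO cells. That is 2.09-fold higher (log2 1.06, SE 0.062, adjusted p 3.67e-15), a change at percentile 98.8 of all transcripts. SESN2 rose from 33.3 and 32.2 CPM to 38.8 and 41.3 CPM (log2 0.28, SE 0.068, adjusted p 0.00158).

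Footprints separated the knockouts. Against naive cells in DMSO, footprints of ATF4 and all 5 enzymes fell when EIF4A1 was deleted and rose when EIF4A2 was deleted. With EIF4A1 deleted 6 members fell, 1 rose and 3 were not called, with a median of -0.50, where 22.7% of 19845 transcripts were called. With EIF4A2 deleted 6 rose, 0 fell and 4 were not called, with a median of 0.33, where 8.03% were called. Both comparisons use the same naive libraries, so the knockouts were also compared with each other. The naive libraries still entered that fit through the scaling, the filter and the shared estimate of the spread. An alternative fit without them called 7 of 9 members tested, where 24.2% of 17910 transcripts were called. No RNA-seq of the EIF4A2 KO line was analysed here, so RNA level and translation cannot be told apart there.

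ATF4 gave 111.7 and 105.9 footprint CPM in naive, 53.8 and 57.6 CPM in EIF4A1 KO and 168.6 and 184.5 CPM in EIF4A2 KO cells. The 3 genotypes did not overlap. Against naive cells the log2 change was -0.96 in EIF4A1 KO (SE 0.11, adjusted p 1.96e-13) and 0.69 in EIF4A2 KO cells (SE 0.077, adjusted p 1.89e-12). Between the knockouts it was -1.65 (SE 0.10, adjusted p 1.86e-30), so that EIF4A1 KO cells held 0.319 times the ATF4 footprints of EIF4A2 KO cells.

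ASNS footprints stood at 333.4 and 315.5 CPM in naive, 218.1 and 226.2 CPM in EIF4A1 KO and 606.3 and 621.0 CPM in EIF4A2 KO cells, again without overlap. The changes were -0.54 (SE 0.068, adjusted p 7.62e-11) and 0.91 (SE 0.058, adjusted p 7.43e-28), the latter at percentile 99 of all transcripts. PSAT1 stood at 287.1 and 276.7 CPM in naive, 198.6 and 211.4 CPM in EIF4A1 KO and 443.2 and 464.6 CPM in EIF4A2 KO cells. It changed by -0.45 (adjusted p 8.19e-08) and 0.68 (adjusted p 7.69e-18). PHGDH, at 356.4 and 372.6 CPM in naive cells, stood at 228.3 and 256.2 CPM in EIF4A1 KO and 509.4 and 498.5 CPM in EIF4A2 KO cells.

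SHMT2, the mitochondrial serine hydroxymethyltransferase, stood at 399.4 and 425.3 footprint CPM in naive, 253.9 and 281.7 CPM in EIF4A1 KO and 497.7 and 508.7 CPM in EIF4A2 KO cells. Its changes were -0.62 (adjusted p 5.22e-14) and 0.28 (adjusted p 0.000286). MTHFD2, a folate dehydrogenase of the same compartment, had the smallest changes of the enzymes, -0.24 (adjusted p 0.0166) and 0.24 (adjusted p 0.0133). Leaving out naive DMSO replicate 1 or EIF4A1 KO DMSO replicate 1 ended the first of these calls (-0.18 and -0.16), and leaving out naive DMSO replicate 2 or EIF4A2 KO DMSO replicate 2 ended the second (0.17 and 0.18).

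Compared directly, the knockouts differed for 7 members, 6 lower and 1 higher in EIF4A1 KO, where 22.6% of all transcripts were called. ASNS stood at 0.366 times, PSAT1 at 0.457, PHGDH at 0.486, SHMT2 at 0.538 and MTHFD2 at 0.716 times the EIF4A2 KO level (adjusted p 2.74e-07 or lower). PPP1R15A was the exception, at 10.2 and 5.76 CPM in EIF4A1 KO and 2.98 and 3.17 CPM in EIF4A2 KO cells (log2 1.40, SE 0.36, adjusted p 0.00179). Naive cells stood between, at 3.87 and 5.02 CPM, and against them PPP1R15A rose by 0.85 in EIF4A1 KO (SE 0.33, adjusted p 0.0498). Its counts in DMSO were only 14 to 30 per library. Without EIF4A1 KO DMSO replicate 1 the changes were 0.91 against EIF4A2 KO and 0.36 against naive cells, and neither was called. The call against naive cells was also lost when either naive DMSO library was left out.

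The other regulators gave no call in footprints. DDIT3 had 4 to 14 counts per DMSO library, and its interval of change in EIF4A1 KO ran from -0.86 to 1.41 log2 units, too wide at this depth to set direction. TRIB3 stood at 12.003 and 13.2 CPM in naive and 7.90 and 8.23 CPM in EIF4A1 KO cells, without overlap (log2 -0.64, SE 0.26, adjusted p 0.0648). SESN2 footprints differed by -0.013 (interval -0.32 to 0.30) in EIF4A1 KO, while its RNA was higher there.

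**Figure D2:**
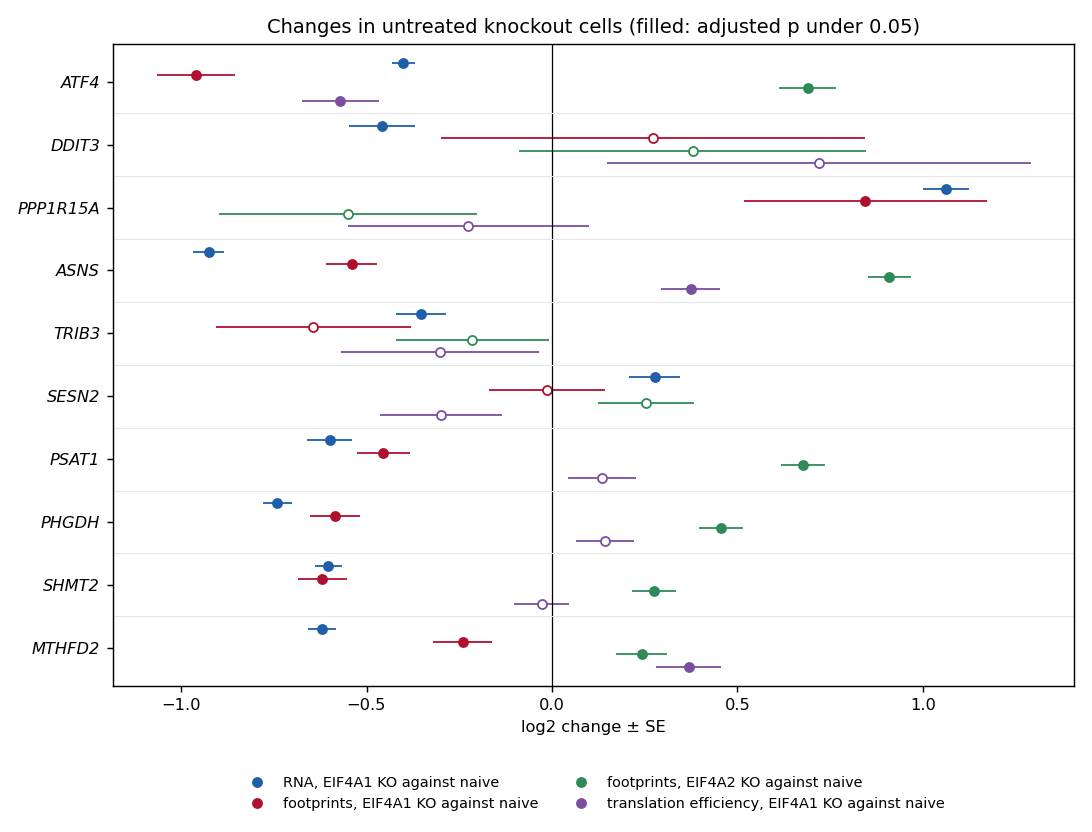
Log2 change against naive cells (x axis) for each member: RNA, footprints and translation efficiency in EIF4A1 KO cells and footprints in EIF4A2 KO cells; bars are standard errors and filled points passed an adjusted p under 0.05. ATF4 and the 5 enzymes lie left of 0 for EIF4A1 KO footprints and right of 0 for EIF4A2 KO footprints.

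Translation efficiency, the footprint change beyond the RNA change, was tested in EIF4A1 KO cells over both assays. Of 25459 transcripts 9.47% were called, and of the members 1 fell, 2 rose and 7 were not called, with a median of 0.053. ATF4 was the member that fell, by 0.57 on the log2 scale (SE 0.10, adjusted p 2.54e-05): its footprints in the knockout were 0.514 and its RNA 0.757 times the naive level. ASNS rose in efficiency by 0.37 (SE 0.080, adjusted p 0.000381), since its RNA fell further than its footprints. MTHFD2 rose by 0.37 (SE 0.087, adjusted p 0.00152), a call lost without naive DMSO replicate 2 (0.25) or EIF4A1 KO DMSO replicate 2 (0.24). For PSAT1 (0.13), PHGDH (0.14) and SHMT2 (-0.028) the intervals held 0, that of SHMT2 running from -0.18 to 0.12. TRIB3 and SESN2 were not called either, but lay below 0 in every alternative fit (-0.42 to -0.25 and -0.44 to -0.25). PPP1R15A ran from -0.76 to 0.066 and DDIT3 from 0.16 to 1.30 over these fits.

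The wider response was read through 38 other genes of the pathway, grouped by role. In EIF4A1 KO cells 18 of them fell and 11 rose at the RNA level, and in footprints 14 fell and 6 rose of 36 tested. In EIF4A2 KO cells 14 rose and 4 fell of 36 in footprints. Over all transcripts 36.5% were called in this RNA comparison, 22.7% in EIF4A1 KO footprints and 8.03% in EIF4A2 KO footprints, which is the background to these counts and to those of each list. Of the 10 amino acid and folate enzymes outside the set, 8 fell and 0 rose in EIF4A1 KO RNA. PCK2, the mitochondrial phosphoenolpyruvate carboxykinase, changed by -0.87 (adjusted p 1.97e-10) and ALDH1L2, a mitochondrial folate enzyme, by -2.65 (adjusted p 8.49e-13). PYCR1, which closes proline synthesis, stood at 42.0 and 49.5 RNA CPM in naive cells (912 and 1004 counts) but gave 1 and 3 counts in EIF4A1 KO RNA. Its footprint counts there were 3 in each DMSO library, against 110 and 183 in naive and 159 and 168 in EIF4A2 KO cells.

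Effectors of the response were mostly lower without EIF4A1, and transporters were split in RNA. Of 7 effectors 6 fell in EIF4A1 KO RNA. In footprints 4 of 6 fell in EIF4A1 KO and 5 of 6 rose in EIF4A2 KO cells. EIF4EBP1, the translation repressor 4E-BP1, changed by -1.05 (adjusted p 6.12e-09) and 0.66 (adjusted p 3.11e-07), and STC2, a secreted glycoprotein, by -1.01 (adjusted p 1.90e-06) and 0.72 (adjusted p 1.07e-06). CHAC1, which degrades glutathione, rose by 1.62 in EIF4A2 KO cells (adjusted p 0.00151), from 8 and 11 counts to 29 and 23. Among 7 transporters 3 fell and 2 rose in EIF4A1 KO RNA (median 0.037), and 4 fell and 0 rose in footprints there. The cystine carrier SLC7A11 changed by -2.08 (adjusted p 3.27e-12) and the leucine carrier SLC7A5 by -1.54 (adjusted p 2.11e-19). In EIF4A2 KO cells 2 transporters rose and 2 fell, SLC7A11 by 0.71 (adjusted p 3.05e-05) and SLC7A5 by -0.56 (adjusted p 7.92e-06).

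In EIF4A1 KO RNA the transcription factors and the chaperone arm did not share the direction of the enzymes. ATF5 RNA rose by 1.22 (adjusted p 5.97e-08) and ATF3 RNA by 0.81 (adjusted p 1.75e-08) in EIF4A1 KO cells, where 3 of 5 factors rose and 0 fell. In footprints 1 of 4 factors rose and 1 fell in EIF4A1 KO, and 2 rose and 0 fell in EIF4A2 KO cells (median 0.52). Of 4 genes of endoplasmic reticulum stress 3 rose in RNA, among them HSPA5, the chaperone BiP, by 0.70 (adjusted p 2.30e-14). HSPA5 lost translation efficiency (-0.57, adjusted p 1.14e-10), as did 4 of 7 transporters, led by SLC3A2 (-0.90, adjusted p 3.97e-15), the heavy chain partner of SLC7A5. Over all 38 listed genes 6 fell and 3 rose in efficiency (23.7%), where 9.47% of all transcripts were called.

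Across the 12 profiling libraries the genes whose footprints ran most like those of ATF4 by Spearman's rho were EIF4EBP1 (0.90), PYCR1 (0.87) and ASNS (0.85), out of the set and the 38 listed genes. By Pearson's r the order differed, with PHGDH first (0.94), EIF4EBP1 next (0.93), and PYCR1 (0.90) and ASNS (0.89) lower down. PPP1R15A ran opposite to ATF4 (rho -0.93, r -0.92), on 10 to 53 counts per library. It was not alone in this, since HSPA5 (rho -0.89, r -0.95) and PPP1R15B (rho -0.83, r -0.80) from the listed genes also ran opposite. These libraries share genotypes and treatments, so the coefficients describe the pattern and carry no p.

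After 30 min of PP242 footprints of the serine and folate enzymes SHMT2, PHGDH and MTHFD2 were lower in naive and EIF4A2 KO cells, while most other members gave no call. Taking both doses together, 3 members fell in naive cells, where 9.38% of 20506 transcripts were called. The EIF4A1 KO line had 2 that fell (6.02% called) and the EIF4A2 KO line 4 (11.7% called), and 0 rose in any genotype. The EIF4A1 KO DMSO libraries were shallower, at 2748170 and 2514601 counts against 4989407 to 6388841 in the other DMSO libraries. A part of depth in these numbers of calls was not tested. MTHFD2 fell in all 3 genotypes. In naive cells it stood at 199.6 and 180.8 CPM in DMSO, 132.1 CPM at 1 µM and 124.7 CPM at 10 µM (log2 -0.56, SE 0.080, adjusted p 1.18e-07). In EIF4A2 KO cells it went from 216.8 and 235.6 CPM to 134.8 and 139.3 CPM (log2 -0.71, SE 0.075, adjusted p 4.28e-12). In EIF4A1 KO cells it went from 151.2 and 169.5 CPM to 116.8 and 122.6 CPM (log2 -0.42, SE 0.085, adjusted p 0.000334), a call lost without EIF4A1 KO DMSO replicate 2 (-0.34). Every PP242 library lay below every DMSO library of its genotype.

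SHMT2 and PHGDH fell in naive and EIF4A2 KO cells. SHMT2 in naive cells stood at 306.3 CPM at 1 µM and 271.2 CPM at 10 µM, below the DMSO libraries (log2 -0.50, SE 0.069, adjusted p 2.95e-08), and changed by -0.44 in EIF4A2 KO cells (adjusted p 3.03e-07). In EIF4A1 KO cells its PP242 libraries, at 254.1 and 240.7 CPM, overlapped DMSO (log2 -0.12, interval -0.27 to 0.027). The difference of responses, EIF4A1 KO minus naive, was 0.38 for SHMT2 (SE 0.10, adjusted p 0.0101), the 1 member called there, where 6.07% of transcripts were. Leaving out single libraries gave 0.31 to 0.48 and ended that call in 4 of 8 cases, those of naive DMSO replicate 2, naive 10 µM, EIF4A1 KO DMSO replicate 1 and EIF4A1 KO 1 µM. PHGDH changed by -0.31 in naive (adjusted p 0.000588) and -0.33 in EIF4A2 KO cells (adjusted p 7.37e-05), and by -0.14 in EIF4A1 KO cells (interval -0.29 to 0.0071). Its difference of responses did not pass the test.

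ASNS fell with PP242 in EIF4A1 KO cells, from 218.1 and 226.2 CPM to 165.8 CPM at 1 µM and 171.4 CPM at 10 µM (log2 -0.40, SE 0.074, adjusted p 7.92e-05). Its changes were -0.16 in naive (adjusted p 0.143) and -0.080 in EIF4A2 KO cells (adjusted p 0.47). PSAT1 changed little in each genotype, by -0.0024, -0.033 and -0.038, and its widest interval ran from -0.18 to 0.12. SESN2 in EIF4A1 KO cells stood higher at 43.2 and 38.8 CPM with PP242 than at 31.2 and 29.2 CPM in DMSO (log2 0.42, SE 0.15, adjusted p 0.0761). PPP1R15A, DDIT3 and TRIB3 had 3 to 79 counts per profiling library and gave no call.

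ATF4 footprints fell with PP242 in EIF4A2 KO cells, from 168.6 and 184.5 CPM to 104.0 CPM at 1 µM and 133.95 CPM at 10 µM (log2 -0.56, SE 0.084, adjusted p 4.50e-07), with both PP242 libraries below both DMSO libraries. The change was larger at the lower dose, -0.76 against -0.40 log2 units, with 1 library each. In naive cells ATF4 stood at 101.5 and 112.2 CPM with PP242 (log2 -0.030, interval -0.22 to 0.16), and in EIF4A1 KO cells at 62.3 and 57.9 CPM (log2 0.098, interval -0.15 to 0.34). The response in EIF4A1 KO minus that in EIF4A2 KO cells was 0.65 (SE 0.15, adjusted p 0.00202), and the response in EIF4A2 KO minus that in naive cells was -0.53 (SE 0.13, adjusted p 0.0752). Of all transcripts 6.21% were called in the former and 0.0683% in the latter comparison. Among the members ASNS (-0.32, adjusted p 0.0279) and SHMT2 (0.32, adjusted p 0.0373) were also called between the knockouts. Leaving out any 1 of the 8 libraries ended the ASNS call (-0.35 to -0.30), and 5 of the 8 ended that of SHMT2 (0.24 to 0.39 over the 8). For the responses of EIF4A2 KO minus naive cells, edgeR called 0 members and 14 transcripts in all, and 6.42% had an unadjusted p under 0.05. ATF4 was called there without naive PP242 1 µM (-0.61) or EIF4A2 KO PP242 10 µM (-0.72).

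The coding of PP242 mattered for all of these counts. With a slope over a dose score of 0, 1 and 2, the members called were 1 in naive (main count 3), 0 without EIF4A1 (2) and 1 without EIF4A2 (4). Of all transcripts the dose score called 1.39%, 0% and 2.18%. With log2(dose + 1) 0 members and 0 of 20506 transcripts were called in each genotype, so the loss was not particular to the members. Under the main coding, with both doses joined, 1 of the 38 other response genes rose and 2 fell in naive cells. In EIF4A1 KO cells 1 rose and 0 fell, and in EIF4A2 KO cells 4 rose and 3 fell, of 36 tested in each genotype. These are 8.33%, 2.78% and 19.4% of the genes tested, against 9.38%, 6.02% and 11.7% of all transcripts under that coding. EIF4EBP1 changed by -0.55 in naive (adjusted p 0.00182) and -0.71 in EIF4A2 KO cells (adjusted p 4.16e-07), and SLC7A5 by -0.45 (adjusted p 0.00171) and -0.66 (adjusted p 1.49e-05).

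**Figure D3:**
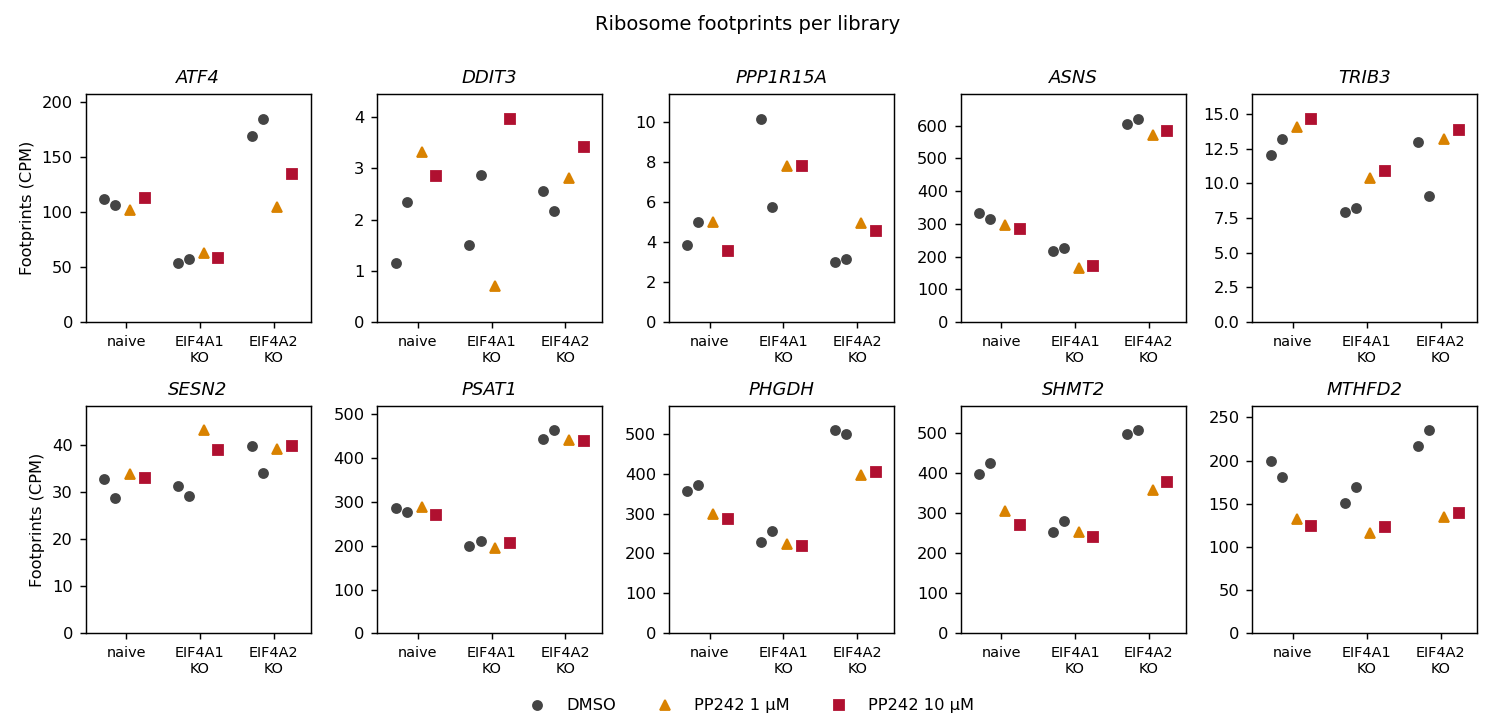
Footprint CPM (y axis, from 0) of each member in all 12 profiling libraries, grouped by genotype; circles are DMSO, triangles 1 µM and squares 10 µM PP242. For ATF4 the EIF4A1 KO libraries lie at 53.8 to 62.3 CPM in all conditions, and the EIF4A2 KO libraries drop from DMSO to PP242.

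**Figure D4:**
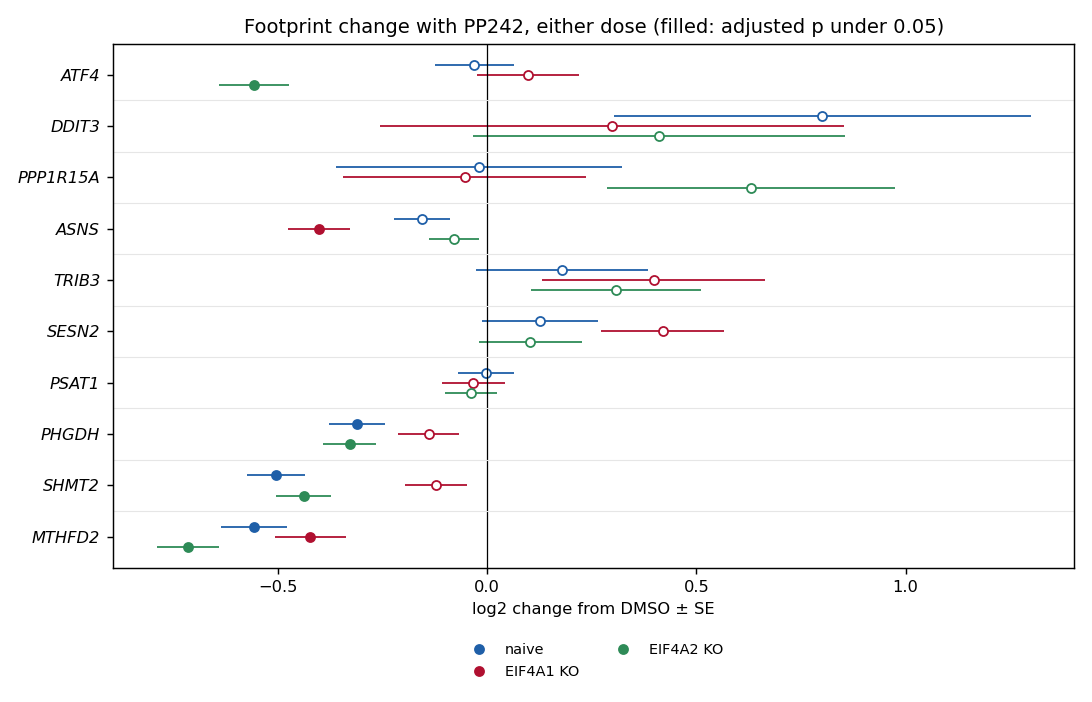
Log2 change of footprints with PP242 at either dose against DMSO (x axis) for each member in naive, EIF4A1 KO and EIF4A2 KO cells; bars are standard errors and filled points passed an adjusted p under 0.05. MTHFD2 is filled in all 3 genotypes and ATF4 in EIF4A2 KO cells, under this coding of the doses.

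Members were both enriched and depleted in the pulldowns. With SBP-eIF4A1, 5 members were enriched over input, 4 depleted and 1 not called, where 55.4% of 26601 transcripts were called. With SBP-eIF4A2, 4 were enriched, 5 depleted and 1 not called, where 59.8% were called. ATF4, DDIT3, PPP1R15A and TRIB3 were enriched with both proteins, and ASNS, PSAT1, PHGDH and SHMT2 depleted with both. No pulldown from cells without a tagged protein was analysed here, so the part of bead binding in each value was not tested.

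ATF4 stood at 1282 and 1296 CPM in SBP-eIF4A1 input and 2872 and 3220 CPM in the pulldown. It was 2.39-fold enriched (log2 1.26, SE 0.085, adjusted p 1.49e-09). With SBP-eIF4A2 it went from 1193 and 1229 CPM to 3199 and 2495 CPM (2.41-fold, adjusted p 1.12e-09). PPP1R15A went from 32.5 and 36.3 CPM to 90.3 and 102.8 CPM with SBP-eIF4A1 (log2 1.504) and from 29.2 and 31.1 CPM to 87.3 and 81.2 CPM with SBP-eIF4A2 (log2 1.52). DDIT3 was enriched by 1.55 and 1.46 log2 units. TRIB3 stood at 48.4 and 46.1 CPM in SBP-eIF4A1 input and 94.5 and 104.2 CPM in the pulldown (log2 1.09, adjusted p 7.56e-09), and its enrichment with SBP-eIF4A2 was 0.60 (adjusted p 5.63e-06). For each of these 4 genes both pulldown libraries lay above both inputs, but the share of all transcripts so separated was not counted.

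PHGDH was the most depleted member. It stood at 423.8 and 432.8 CPM in SBP-eIF4A1 input and 132.5 and 149.1 CPM in the pulldown (log2 -1.59, SE 0.063, adjusted p 2.47e-12), and changed by -1.90 with SBP-eIF4A2 (adjusted p 2.51e-13). ASNS changed by -1.15 and -1.48, PSAT1 by -0.83 and -1.14, and SHMT2 by -0.24 (adjusted p 0.00211) and -0.83 (adjusted p 1.56e-09). MTHFD2 stood apart from the other enzymes. Its pulldown libraries, at 350.6 and 358.2 CPM, lay above the SBP-eIF4A1 inputs at 283.7 and 280.9 CPM (log2 0.34, adjusted p 0.00201), and with SBP-eIF4A2 the change was 0.16 (interval -0.016 to 0.33; 0.27 and called without pulldown replicate 1). SESN2 changed by -0.18 (adjusted p 0.124) and -0.22 (adjusted p 0.0422), the latter a call lost in 3 of 4 fits that left out 1 library (-0.38 to -0.13 over the 4).

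Capture by the 2 proteins was then compared directly. Enrichment was higher with SBP-eIF4A1 for 4 members and lower for 0, where 15.7% of transcripts were called, 2767 higher and 1409 lower. SHMT2 differed most, by 0.60 log2 units (SE 0.081, adjusted p 7.98e-05). TRIB3 differed by 0.49 (adjusted p 0.0074), ASNS by 0.33 (adjusted p 0.016) and PHGDH by 0.31 (adjusted p 0.0229). Mean ASNS input was itself unequal, at 648.4 CPM in SBP-eIF4A1 and 380.1 CPM in SBP-eIF4A2 cells, with pulldowns at 290.05 and 133.4 CPM. A part of the input level in the ASNS difference was not tested. Leaving out single libraries gave between 1 and 7 called members, and SHMT2 was called in each case. The ASNS call was lost in 5, the PHGDH call in 4 and the TRIB3 call in 3 of the 8 fits. Leaving out SBP-eIF4A2 input replicate 2 ended all 3 (0.22, 0.26 and 0.40), as did SBP-eIF4A1 input replicate 2 (0.33, 0.34 and 0.47) and SBP-eIF4A1 pulldown replicate 2 (0.34, 0.23 and 0.43). For ATF4 the difference was -0.012 (interval -0.26 to 0.24), but it rested on which SBP-eIF4A2 pulldown library was used. Without replicate 1 it was 0.18 (adjusted p 0.0287) and without replicate 2 it was -0.18 (adjusted p 0.0276). Among the 38 other response genes 7 were called and all were higher with SBP-eIF4A1, led by EIF4EBP1 at 0.69 (adjusted p 0.000131). That is 18.4% of the list, near the 15.7% of all transcripts, where higher was also the more frequent direction.

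In the siRNA experiment the SBP-eIF4A1 pulldown after siControl gave other calls for several members. Here 1 was enriched, 5 depleted and 4 not called, where 49.2% of 26646 transcripts were called. PPP1R15A was enriched again, from 36.7 and 44.2 CPM to 96.9 and 100.04 CPM (log2 1.28, SE 0.19, adjusted p 1.01e-06), and PHGDH (-1.98), PSAT1 (-1.88), SHMT2 (-1.23) and ASNS (-1.15) were depleted again. MTHFD2, enriched without siRNA, was depleted here, from 275.6 and 304.7 CPM to 115.4 and 104.6 CPM (log2 -1.41, SE 0.18, adjusted p 6.44e-08). ATF4 stood at 1463 and 1655 CPM in input and 1853 and 1785 CPM in the pulldown (log2 0.22, adjusted p 0.292), and DDIT3 (-0.18) and TRIB3 (-0.22) were not called either. The difference between the experiments was not tested. Replicates were also further apart here: TRIB3 stood at 32.6 and 18.0 CPM in the siControl inputs.

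**Figure D5:**
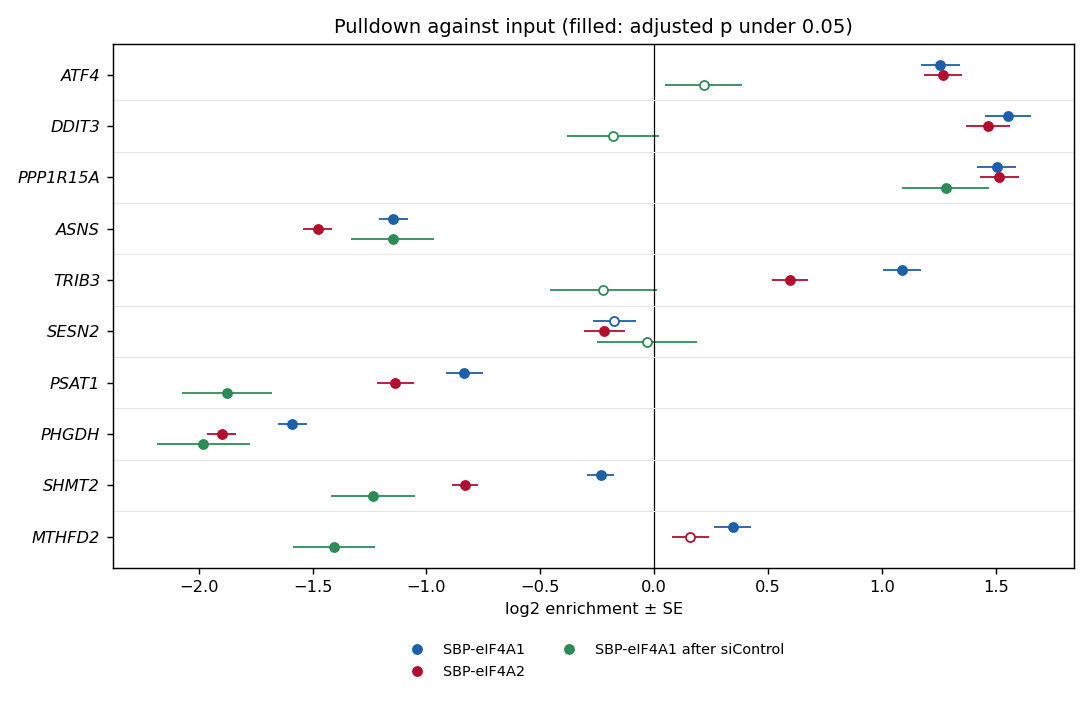
Log2 enrichment of pulldown over input (x axis) for each member with SBP-eIF4A1, with SBP-eIF4A2 and with SBP-eIF4A1 after siControl; bars are standard errors and filled points passed an adjusted p under 0.05. PPP1R15A lies right of 0 and PHGDH left of 0 in all 3 pulldowns.

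LARP1 knockdown gave no call among the members in input RNA. Of 26646 transcripts 0.394% were called by edgeR, and 12% had an unadjusted p under 0.05. Of the 10 members 9 lay below 0, with a median of -0.26 against 0.026 over all transcripts. These signs were not all stable when 1 library was left out. PHGDH (-0.36 to 0.19), SESN2 (-0.43 to 0.18), TRIB3 (-0.59 to 0.27) and SHMT2 (-0.083 to 0.23) crossed 0. ASNS came closest to a call, with 344.8 and 363.2 CPM in siControl and 234.8 and 189.3 CPM in siLARP1 inputs (log2 -0.73, SE 0.18, adjusted p 0.0573), the groups not overlapping. Its adjusted p ranged from 0.0026 to 0.471 over the alternatives. With the DESeq2 Wald test 3 members were called, ASNS (-0.77), MTHFD2 (-0.61) and ATF4 (-0.54). ATF4 stood at 1463 and 1655 CPM in siControl and 1182 and 1001 CPM in siLARP1 inputs (edgeR log2 -0.50, adjusted p 0.168).

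The lower siLARP1 value of ASNS, ATF4 and MTHFD2 came from replicate 2, the library that went against its label. Without it the changes were -0.60 for ASNS, -0.41 for ATF4 and -0.52 for MTHFD2, and no member was called either way. The single siLARP1 pulldown library allows a description only. Set against the siLARP1 inputs, enrichment was higher than after siControl for ASNS (0.65), ATF4 (0.44) and DDIT3 (0.39), and lower for SHMT2 (-0.41) and PPP1R15A (-0.22). SESN2, PSAT1, PHGDH, MTHFD2 and TRIB3 lay between -0.16 and 0.026. Several of these values rested on single siControl libraries: leaving out 1 of them gave -0.59 to 0.27 for TRIB3, -0.39 to 0.14 for PHGDH, -0.24 to 0.24 for SESN2 and -0.36 to -0.089 for PPP1R15A. ASNS stayed at 0.58 to 0.72 and ATF4 at 0.35 to 0.53. The median change over the set was -0.042, the same as over all transcripts, with 5 of 10 members below 0. Without input replicate 2 the values were 0.49 for ASNS, 0.32 for ATF4 and -0.46 for SHMT2. For ASNS, ATF4 and DDIT3 the higher enrichment came with lower input and no higher pulldown level. Mean input after siControl and siLARP1 was 354 and 212 CPM (ASNS), 1559 and 1091.5 CPM (ATF4), and 31.5 and 22.3 CPM (DDIT3). The pulldown stood at 160.2 and 149.6 CPM (ASNS), 1819 and 1721 CPM (ATF4), and 27.9 and 25.9 CPM (DDIT3).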

How the data were processed

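Members and gene lists were chosen with earlier results of these data known, as was the joint coding of the PP242 doses. Every member is named. Of the other response genes, at most 4 called genes per list and comparison, those with the smallest adjusted p, could be named. Per the submitters' processing notes, CASAVA 1.8 and STAR 2.7.0a were used with hg38. The counting tool, the annotation release, the strand setting and the handling of shared reads are not given in the sources used here, so reads shared with pseudogenes, paralogs (EIF4A1 and EIF4A2) or overlapping genes may enter a value.

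The authors deposited raw counts per Ensembl transcript, 1 table per library without a header. The other measure the authors deposited, a length per transcript, read for the members as coding codons less 9 (PHGDH less 10), served to check identifiers and to scale levels. No table pairs identifiers with genes: other response genes were entered by identifier and kept where the length matched their protein. Equal count vectors were collapsed, and the rest were reduced towards 1 transcript per locus. Neighbours within 10 positions correlating at 0.9 or more on log2 CPM (pseudocount 0.5) were dropped, and listed transcripts were kept first. Transcripts of a locus that correlated less stayed, so shares and percentiles over all transcripts can count a locus more than 1 time.

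Tests used edgeR 4.0.16 in R 4.3.3: TMM, filterByExpr (minimum count 10, minimum total 15), glmQLFit and glmQLFTest, two-sided, with Benjamini-Hochberg adjustment over all transcripts tested and calls at an adjusted p under 0.05. The fits covered 4 RNA-seq, 6 DMSO profiling, 8 joint, 12 profiling, 8 pulldown and 7 siRNA libraries. The pipeline was tested on simulated data. Alternatives were DESeq2 1.42.0, other scaling, filters, PP242 codings, a replicate block and leaving out each library. Replicate pairs differed by more than counting noise (chi-square per degree of freedom 1.253 to 12.67), which does not show that they were separate cultures. The highest value was that of the siLARP1 inputs, the pair with the library that went against its label. All libraries were kept.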

Additional observations from a re-analysis of the deposited data

Results flagged for a closer look

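Effects that differed between genotypes or between the tagged proteins by a test of the difference itself are listed here by value. For the response to PP242, EIF4A1 KO minus naive gave 0.38 for SHMT2 on the log2 scale. EIF4A1 KO minus EIF4A2 KO gave 0.65 for ATF4, -0.32 for ASNS and 0.32 for SHMT2. For enrichment, SBP-eIF4A1 minus SBP-eIF4A2 gave 0.60 for SHMT2, 0.49 for TRIB3, 0.33 for ASNS and 0.31 for PHGDH. No group held the 4 libraries that a test for an outlying sample needs.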

How the results depend on the processing

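Of 1806 single-member comparisons under an alternative, 1712 stayed on their side of the threshold with no called value changing sign, 76 lost a call, 17 gained one and 1 reversed. Uncalled values near 0 or of few counts, such as those of DDIT3 and PPP1R15A with PP242 in EIF4A1 KO cells and of SESN2 footprints there, changed sign under some alternatives. The reversal was the ATF4 difference of enrichment between SBP-eIF4A1 and SBP-eIF4A2 (0.18 without SBP-eIF4A2 pulldown replicate 1 and -0.18 without replicate 2, against -0.012). Members called with PP242 under the dose score numbered 1 (naive), 0 (EIF4A1 KO) and 1 (EIF4A2 KO), and 0 in the differences EIF4A1 KO minus naive and EIF4A1 KO minus EIF4A2 KO. Under log2(dose + 1) all 5 of these counts were 0. Without a filter on low counts 1 member was called in EIF4A2 KO minus naive and 1 in the siLARP1 inputs, where DESeq2 size factors gave 1, the DESeq2 Wald test 3 and all distinct transcripts 1, against 0. Leaving out single libraries gave 0 to 1 called members in EIF4A1 KO minus naive and in EIF4A2 KO minus naive, 1 to 2 with PP242 in EIF4A1 KO cells, 1 to 2 in EIF4A1 KO minus EIF4A2 KO and 1 to 7 in the difference of enrichment. The cause of these shifts was not tested. With the replicate block the called members were 10 in EIF4A1 KO RNA, 6 (against 7) for EIF4A1 KO and 5 (against 6) for EIF4A2 KO footprints, 10 (against 9) in the SBP-eIF4A2 pulldown and 5 (against 4) in the difference of enrichment. No label says that a number marks a shared source. Correlations of same-numbered deviations ran from -0.161 to 0.045, except for siControl input and pulldown, where 0.486 is a hint of pairing from the data, and the block gave 6 called members there, as without it. Depth limits DDIT3, PPP1R15A and TRIB3 in profiling.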
